A study of Homo sapiens with 9 samples.

Results

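The long arm of chromosome 1 was described in T47D cells, an oestrogen receptor-positive luminal breast cancer line, by the mRNA signal of 841 of its genes among 20099 genes tested. The members were chosen by position and by detection: array probes starting at position 145000000 of chromosome 1 (hg19) or later, well above background on all 3 arrays of at least 1 line, with 1 gene per array gene name. IL6R, ADAR, PARP1, TGFB2 and the names beginning KCN, COL, LAM, TRIM, WNT or LINC or ending in -AS1 were left out. The array carries 1782 gene names on the arm after these exclusions, and those that did not pass detection were not analysed. The members lie between 145018864 and 249212562. Of these, 758 were well above background on all 9 arrays, whereas 15 reached 3 of 3 arrays only in T47D-VC1, 16 only in T47D-PA5 and 6 only in T47D-PA6, and members of the last 3 kinds had to differ between lines.

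The 3 lines were compared on 3 one-colour arrays each, with no treatment named in the labels. T47D-VC1 carries the vector alone, T47D-PA5 expresses an incomplete form of PTH-AS and T47D-PA6 its full length. PTH-AS is an intergenic long noncoding RNA, encoded downstream of the parathyroid hormone gene and on the opposite strand. The vector was pTARGET, a plasmid for expression in mammalian cells, and stable clones were kept by drug selection. Each PTH-AS construct is represented by 1 line chosen for high expression, so that the inserted sequence and a difference between clones cannot be told apart, and the labels do not say whether the 3 arrays of a line came from separate cultures. P-values therefore measure only the spread between these arrays, which may be technical.

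The long arm of chromosome 1 is among the segments most often present in extra copies in breast cancer, and T47D is an aneuploid line. Clusters of related genes lie on the arm, among them the S100 calcium-binding proteins and the epidermal differentiation complex near its proximal end, the Fc receptor-like and SLAM genes of leukocytes, and the regulators of complement activation. It also carries many genes that every cell uses, such as mitochondrial ribosomal proteins, chromatin regulators and kinetochore components. When the number of copies of a segment differs between cells, the transcripts of its genes usually differ by a small and even amount, while single genes can differ by far more under their own regulation. DNA copy number was not measured here.

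Promoter sequences of 5 members are printed as a description, and no difference in signal below rests on them. S100A14 and PEAR1 were the steadiest of the large differences of T47D-PA6, NMNAT2 was detected in T47D-PA5 alone, and NUF2 and PSMB4, both lower in T47D-PA6 than in T47D-PA5, held a match to an interferon-related motif. Each is the 250 bases upstream of the gene's start in RefSeq (GRCh38.p14), written 5′ to 3′ on the strand of the gene, with the motif match in capitals.
S100A14, chr1:153616326-153616575, - strand: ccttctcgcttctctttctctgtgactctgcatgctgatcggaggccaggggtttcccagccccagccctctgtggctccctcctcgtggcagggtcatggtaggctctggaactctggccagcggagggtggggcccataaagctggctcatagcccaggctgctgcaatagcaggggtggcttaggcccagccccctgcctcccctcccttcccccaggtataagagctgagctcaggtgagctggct
PEAR1, chr1:156893468-156893717, + strand: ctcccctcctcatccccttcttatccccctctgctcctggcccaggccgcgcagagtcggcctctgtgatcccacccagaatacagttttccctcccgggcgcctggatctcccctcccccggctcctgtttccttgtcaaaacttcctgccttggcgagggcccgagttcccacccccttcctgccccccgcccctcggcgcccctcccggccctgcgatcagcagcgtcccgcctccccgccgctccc
NMNAT2, chr1:183418381-183418630, - strand: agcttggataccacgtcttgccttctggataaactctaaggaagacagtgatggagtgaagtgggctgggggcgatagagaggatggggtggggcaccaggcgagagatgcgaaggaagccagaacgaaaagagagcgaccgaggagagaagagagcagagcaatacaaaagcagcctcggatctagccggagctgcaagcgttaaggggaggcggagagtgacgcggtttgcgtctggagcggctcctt
NUF2, chr1:163321704-163321953, + strand: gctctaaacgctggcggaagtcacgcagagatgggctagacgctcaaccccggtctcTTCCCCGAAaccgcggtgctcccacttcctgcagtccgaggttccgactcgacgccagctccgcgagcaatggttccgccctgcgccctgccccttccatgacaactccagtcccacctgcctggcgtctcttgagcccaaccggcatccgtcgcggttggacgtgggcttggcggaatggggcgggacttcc
PSMB4, chr1:151399323-151399572, + strand: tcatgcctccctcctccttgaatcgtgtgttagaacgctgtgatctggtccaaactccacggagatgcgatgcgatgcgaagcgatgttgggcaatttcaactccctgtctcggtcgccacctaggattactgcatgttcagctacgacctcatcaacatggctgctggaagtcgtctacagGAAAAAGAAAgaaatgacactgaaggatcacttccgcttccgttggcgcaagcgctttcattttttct

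Of the 841 members, 568 matched a RefSeq gene by symbol, 59 by accession and 8 by synonym, 2 of them (RPSAP58 and TMEM183B) to a gene listed on another chromosome, and 526 had a promoter window. The capitals in NUF2 are a GAS, the interferon-gamma activated sequence TTCNNNGAA, starting 193 bases upstream, and those in PSMB4 are the core of the interferon-stimulated response element, a pair of GAAA tetramers 2 bases apart, starting 68 bases upstream. Both strands were searched, and overlapping matches were allowed. The windows of EFNA3 and MRPS14, also lower in T47D-PA6 than in T47D-PA5, held a GAS too and are not printed. The core was in 2.47% of member windows and 3.07% of all 27305 windows, and the GAS in 5.32% and 6.78%. A full oestrogen response element, GGTCA and TGACC separated by 3 bases, was in 1 member window (0.19%, beside 0.0439% of all). The windows of S100A14, PEAR1 and NMNAT2 held none of the 3 motifs as spelled here. Among the members lower in T47D-PA6 than in T47D-VC1, 1 of 86 windows held the core and 5 held the GAS. Of the 11 with a window that were higher, 0 held any of these motifs.

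The arm as a whole was higher in T47D-PA5 and lower in T47D-PA6 than in the vector line. In T47D-PA5 the arm's log2 fold changes against T47D-VC1 had a median of 0.32, a ratio of 1.25, whereas the median over all genes tested was -0.03. In T47D-PA6 it was -0.20 against T47D-VC1, a ratio of 0.87, beside -0.03 for all genes. Set directly against T47D-PA5, T47D-PA6 had a median of -0.58 on the arm, a ratio of 0.67, beside -0.001 for all genes. The comparisons with T47D-VC1 share its 3 arrays, so their values stand side by side only. The members were chosen with these results known, so the medians are a description with no test.

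**Figure D1:**
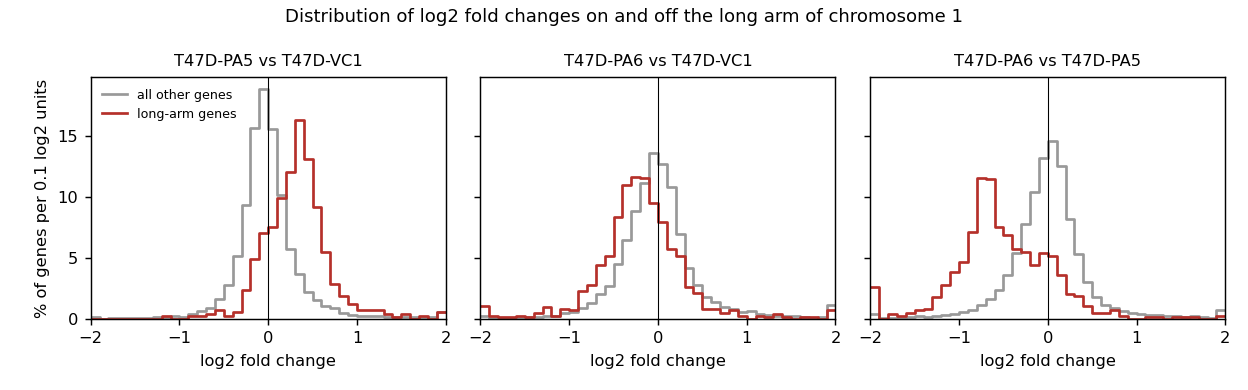
Percent of genes (y axis) in steps of 0.1 log2 fold change (x axis) for the 841 long-arm genes (red) and all other genes (grey) in the 3 comparisons; values beyond ±2 are placed in the outermost steps. The centre of the red distribution lies to the right of the grey in T47D-PA5 against T47D-VC1 (median 0.32) and to the left in T47D-PA6 against T47D-PA5 (median -0.58), and the distributions overlap.

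The shift involved most of the arm and not a few genes. Against T47D-VC1, 142 members (16.9%) had a log2 fold change under 0 in T47D-PA5, compared with 54.7% of all genes, and the middle 50% of members ran from 0.11 to 0.49. In T47D-PA6, 602 members (71.6%) were under 0, compared with 54.4% of all genes. In T47D-PA6 against T47D-PA5 the count was 703 (83.6%), compared with 50.2%. The short arm of the same chromosome, with 1113 genes tested, had medians of -0.04 in T47D-PA5 and -0.01 in T47D-PA6 against T47D-VC1. Medians of the chromosomes other than 1 ran from -0.10 to 0.01 in T47D-PA5. In T47D-PA6 they ran from -0.24 on chromosome 13 to 0.09, with chromosome 9 at -0.21, so the long arm of chromosome 1 was not alone in that line.

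Array by array, the arm medians separated the lines. Relative to the mean of the T47D-VC1 arrays, they were -0.02, 0.02 and 0.01 log2 units in T47D-VC1 replicates 1, 2 and 3. They were 0.31, 0.33 and 0.32 in T47D-PA5, and -0.12, -0.25 and -0.26 in T47D-PA6. The medians of the 3 lines did not overlap, with means of 0.003 ± 0.025, 0.32 ± 0.01 and -0.21 ± 0.08 (SD, n = 3). Genes off the arm had medians between -0.06 and 0.01 on every array. Replicate 1 of T47D-PA6 stood apart from the other 2 arrays of that line and lay closest to T47D-VC1, and its own median off the arm was -0.06.

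**Figure D2:**
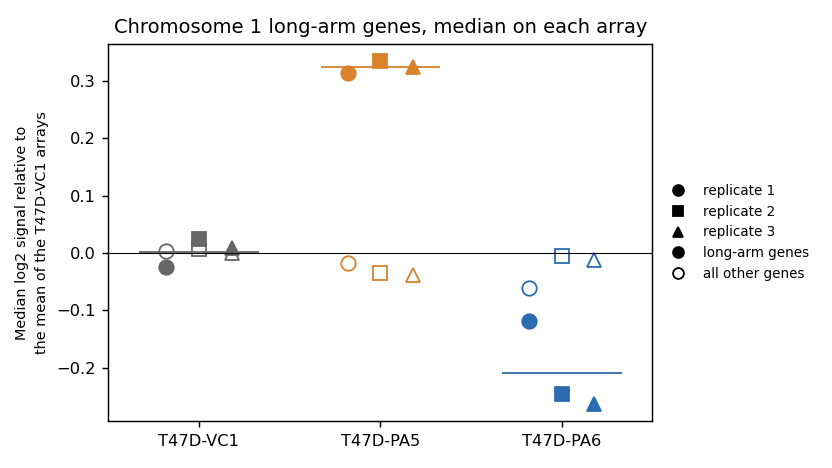
Median log2 signal of the 841 long-arm genes (filled) and of all other genes (open) on each of the 9 arrays, relative to the mean of the T47D-VC1 arrays (y axis), by line (x axis); symbols give the replicate and horizontal lines the mean of 3 arrays. T47D-PA5 sits between 0.31 and 0.33 and T47D-PA6 between -0.26 and -0.12, while the open symbols stay between -0.06 and 0.01.

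The arrays lay on 3 slides, and replicate 1 of every line was on a slide of an earlier scan run. Within slides 1, 2 and 3, the arm median of T47D-PA5 against T47D-VC1 was 0.32, 0.30 and 0.31. For T47D-PA6 against T47D-VC1 it was -0.09 within slide 1, where genes off the arm stood at -0.05, and -0.27 within slide 3, where they stood at -0.01. For T47D-PA6 against T47D-PA5 it was -0.43 within slide 1 and -0.62 within slide 3. The rise in T47D-PA5 was thus the same size in each slide, while the shortfall of T47D-PA6 against the vector line was small on the earlier slide, and the part of the slide in it was not tested. Without a filter on dim probes, which adds genes not detected in any line, the arm medians were 0.13 in T47D-PA5 and -0.04 in T47D-PA6 against T47D-VC1. With replicates 2 and 3 only, the medians were 0.29 for T47D-PA5 and -0.25 for T47D-PA6 against T47D-VC1, and -0.63 between them.

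Along the arm, T47D-PA5 was raised throughout, whereas T47D-PA6 changed toward the distal end. In 10 Mb bins counted from the start position, the T47D-PA5 median against T47D-VC1 stayed between 0.27 and 0.34 in all 11 bins, and 0% of running medians over 41 genes were under 0. For T47D-PA6 the medians were between -0.37 and -0.17 in the first 9 bins, -0.11 from 90 to 100 Mb and 0.15 in the last bin. The -0.37 is that of the bin from 40 to 50 Mb, which holds only 14 genes, and the other 8 ran from -0.29 to -0.17. Of the 28 genes in the last bin, from COX20 to PGBD2, 17 were above 0 in T47D-PA6 against T47D-VC1.

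The change began before the last bin. Between 80 and 85 Mb, from DNAH14 to lnc-TAF5L-1, the T47D-PA6 median over 50 genes was -0.29 and 7 genes were above 0. Between 85 and 90 Mb the median over 35 genes was 0.07 and 18 were above 0. It then stood at -0.06 over 22 genes and -0.11 over 17 genes before reaching 0.15. T47D-PA5 kept medians of 0.32, 0.35, 0.33, 0.23 and 0.27 over the same 5 intervals. In the last bin replicate 1 of T47D-PA6 had a median of 0.02 and replicates 2 and 3 had 0.17 each, whereas T47D-VC1 replicate 1 had -0.09 and the other 2 had 0.06 and 0.08. Those 3 T47D-PA6 medians overlapped with the T47D-VC1 medians.

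**Figure D3:**
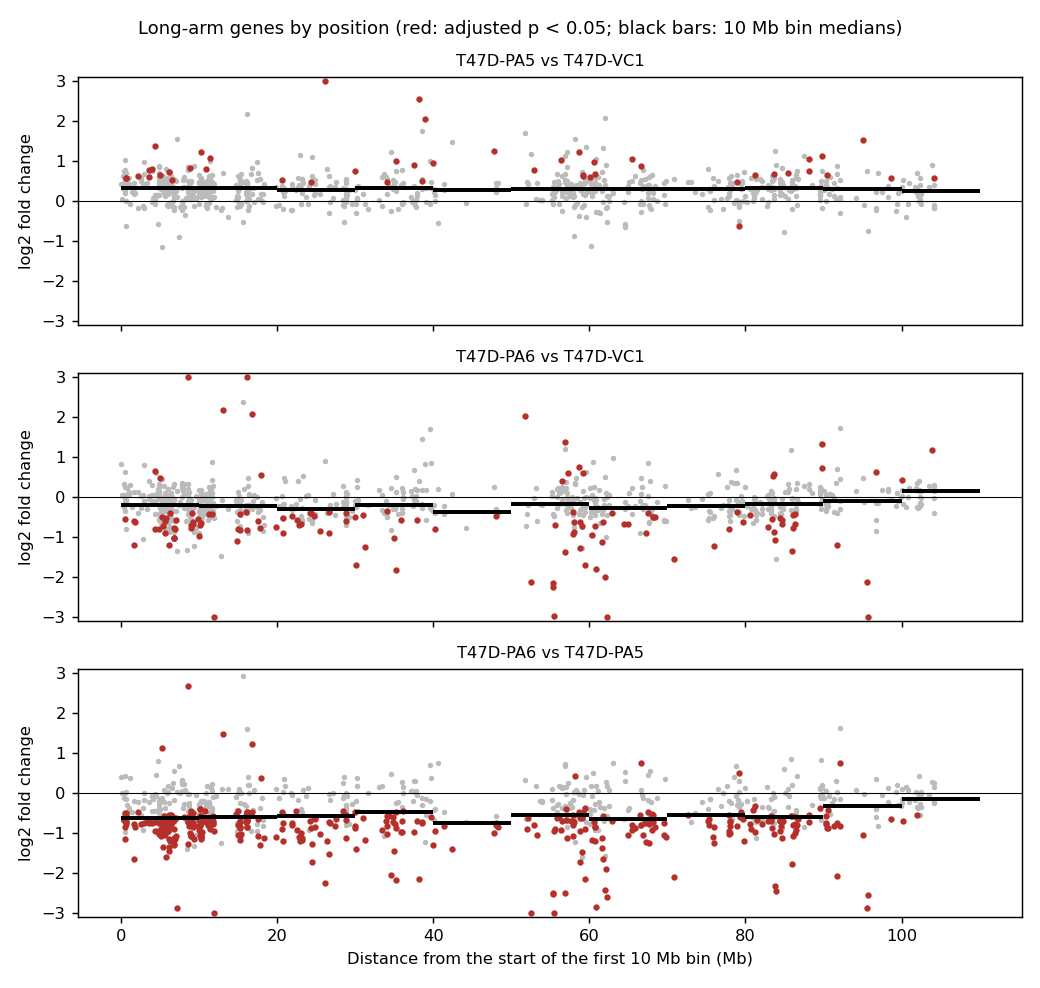
Log2 fold change (y axis) of each long-arm gene against its distance from the start of the first bin in Mb (x axis) in the 3 comparisons; red points passed an adjusted p of 0.05, black bars are 10 Mb bin medians, and values beyond ±3 are drawn at ±3. The bars stay near 0.3 in T47D-PA5 against T47D-VC1, and in T47D-PA6 they lie below 0 until the last bin, at 0.15.

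Genes that every cell uses did not all take the same direction in the distal part of the arm. COX20, an assembly factor of cytochrome c oxidase, is at 245006469 and gave 2535, 2377 and 2312 in T47D-VC1, 3283, 2958 and 2857 in T47D-PA5, and 2857, 3400 and 3499 in T47D-PA6. All T47D-PA6 arrays lay above those of T47D-VC1, by a log2 fold change of 0.43 ± 0.11 (SE, n = 3, limma adjusted p = 0.047). That call was lost under 14 of 22 alternatives, the replicate block (adjusted p = 0.064), the 75th percentile shift (0.12) and centring on genes off the arm (0.051) among them. HNRNPU, a nuclear RNA-binding protein, SMYD3, a histone methyltransferase, and TFB2M, a mitochondrial transcription factor, lie distal to it with log2 fold changes of 0.18, 0.23 and 0.17 that did not pass. None of these 4 passed in T47D-PA6 against T47D-PA5. A second, dimmer probe of COX20 gave 0.20 in T47D-PA6 against T47D-VC1 and did not pass. TOMM20, a receptor for mitochondrial import at 235275399, which is also distal to the interval where the median first exceeded 0, differed in T47D-PA6 from T47D-VC1 by -0.29 on the log2 scale and did not pass (limma adjusted p = 0.173). Against T47D-PA5 it was lower, at -0.79 ± 0.12 (SE, limma adjusted p = 0.0075). A second, dimmer probe of TOMM20 gave -0.66 against T47D-VC1 and passed (limma adjusted p over probes = 0.0404), and gave -0.90 against T47D-PA5. The fall of TOMM20 against T47D-VC1 was thus called by 1 probe and not by the other.

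**Figure D4:**
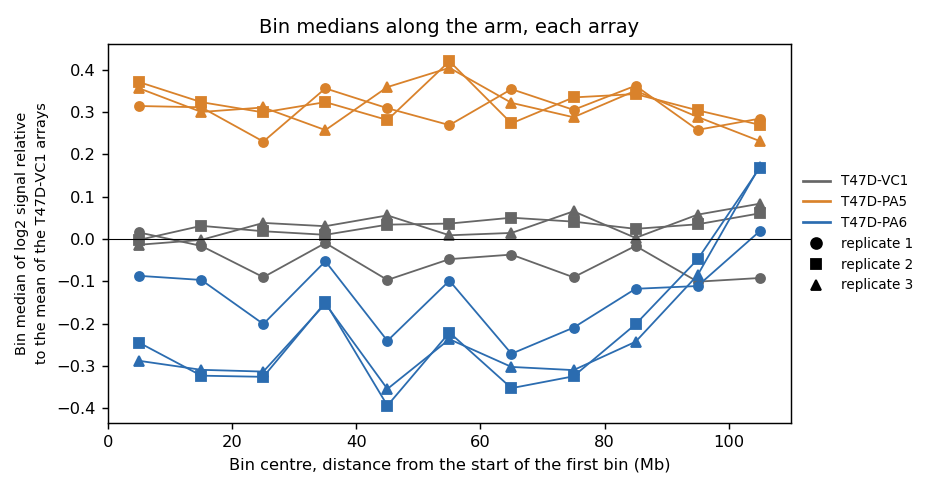
Median log2 signal of the long-arm genes in each 10 Mb bin, relative to the mean of the T47D-VC1 arrays (y axis), against the bin centre (x axis), for each of the 9 arrays; colours give the line and symbols the replicate. The 3 T47D-PA5 arrays lie between 0.23 and 0.42 in every bin, and the T47D-PA6 arrays come up to between 0.02 and 0.17 in the last bin.

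Gene by gene, the arm was tested with limma over all 20099 genes, and adjusted p-values are Benjamini-Hochberg values over all of them, called below 0.05. In T47D-PA6 against T47D-PA5, 390 members (46.4%) were lower and 9 (1.07%) were higher, where 6.06% and 3.65% of all genes were called. In T47D-PA6 against T47D-VC1, 115 members (13.7%) were lower and 20 (2.38%) were higher, where 5.33% and 4.69% of all genes were called. In T47D-PA5 against T47D-VC1, 47 members (5.59%) were higher and 1 was lower, where 1.37% and 0.299% of all genes were called. The smaller count in T47D-PA5 goes with a smaller background of calls, and at an unadjusted p under 0.05 there were 371 higher and 9 lower, where 8.71% and 6.88% of all genes were so.

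The arrays of the 2 lines did not overlap for 428 members in T47D-PA5 against T47D-VC1, where 23.3% of all genes were so. The count was 339 in T47D-PA6 against T47D-VC1, where the share of all genes was 30.9%, and 546 in T47D-PA6 against T47D-PA5, where it was 32.7%. By the definition in the study's methods, a ratio above 2 or under 0.6 with no test, T47D-PA6 had 15 members up and 79 down against T47D-VC1, where 3.47% and 4.16% of all genes were past it. T47D-PA5 had 32 up and 6 down, where 2.16% and 1.76% of all genes were. T47D-PA6 against T47D-PA5 had 7 up and 273 down, where 2.69% and 5.3% were. A median ratio of 1.25 lies far inside these limits, so most members that moved with the arm are not counted by them.

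The counts depend on single arrays. Without T47D-VC1 replicate 3, 22 members were lower and 7 higher in T47D-PA6 against T47D-VC1, and without T47D-PA6 replicate 1 there were 198 lower and 31 higher. The lower count was 31 without T47D-VC1 replicate 2, 64 and 62 without T47D-PA5 replicates 2 and 3, and 29 and 24 without T47D-PA6 replicates 2 and 3, and the higher count was 13 without T47D-VC1 replicate 2 and 10 and 9 without T47D-PA6 replicates 2 and 3. Without T47D-PA5 replicate 3, 6 members were higher in T47D-PA5 against T47D-VC1, and without T47D-PA6 replicate 1, whose spread enters the shared fit, 114 were. It was 15 and 9 without T47D-VC1 replicates 2 and 3, 9 without T47D-PA5 replicate 2, and 26 and 22 without T47D-PA6 replicates 2 and 3. For T47D-PA6 against T47D-PA5 the lower count ran from 187 without T47D-PA6 replicate 3 to 432 without T47D-VC1 replicate 1, with 213 and 202 without T47D-PA5 replicates 2 and 3 and 193 without T47D-PA6 replicate 2. The higher count was 3 without T47D-PA6 replicate 2 or 3, 4 without T47D-PA5 replicate 2 or 3, and 5 without T47D-VC1 replicate 3. Same-numbered arrays of T47D-PA6 and the other lines were taken as pairs from correlations in these data. Replicate 2 of T47D-PA6 was on slide 3, whereas replicate 2 of each other line was on slide 2. With the replicate block, 36 members were higher in T47D-PA6 when T47D-VC1 was the reference and 14 when T47D-PA5 was, where 6.06% and 4.59% of all genes were called. With replicates 2 and 3 only, 386 were lower and 83 higher in T47D-PA6 against T47D-VC1, where 19.9% and 17.2% of all genes were called. In T47D-PA5 against T47D-VC1, 376 were higher and 13 lower, where 11.7% and 9.72% of all genes were. In T47D-PA6 against T47D-PA5, 544 were lower and 35 higher, where 18.5% and 17% were. The share of all genes called moved too when 1 array was left out, from 1.46% to 7.41% lower in T47D-PA6 against T47D-VC1, from 0.373% to 2.37% higher in T47D-PA5 against T47D-VC1, and from 2.4% to 8.28% lower in T47D-PA6 against T47D-PA5.

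The displacement was larger among protein-coding genes and not confined to bright ones. The 583 members that RefSeq lists as protein-coding had medians of 0.35 in T47D-PA5 and -0.24 in T47D-PA6 against T47D-VC1, and the 208 without a match to a RefSeq gene on the chromosome had 0.13 and -0.09. By mean signal, 3 groups of members of equal size, dim, middle and bright, had T47D-PA5 medians of 0.25, 0.34 and 0.33. The T47D-PA6 medians against T47D-VC1 were -0.18, -0.22 and -0.22. Genes off the arm in the same signal ranges had medians between -0.06 and -0.01 in both comparisons. In a bulk sample fewer cells expressing a gene and less RNA per cell cannot be told apart.

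Most members kept close to their neighbours. Of the 841, 740 lay within 0.5 log2 units of the median of their own bin in T47D-PA5 against T47D-VC1, 677 in T47D-PA6 against T47D-VC1 and 595 in T47D-PA6 against T47D-PA5. Members more than 1 log2 unit above their bin median numbered 14, 23 and 31 in these comparisons, and those more than 1 below numbered 6, 28 and 28. Of these outliers, above and below together, 12, 26 and 34 were well above background on all 9 arrays, as were 758 of the 841 members. The others were dim in at least 1 line, where the detection filter favours a difference. Promoter windows of the outliers held fewer CpG dinucleotides. The median was 9 in the 27 windows of T47D-PA6 outliers against T47D-VC1 and 18 in the 427 windows of members near their bin median. For T47D-PA5 the medians were 15 in 11 outlier windows and 18 in 480 windows near it. This split was made after the values were seen, did not leave out the dim outliers and carries no test.

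Among the genes that stood out in T47D-PA6, S100A14 had the steadiest rise. S100A14, whose probe lies at chr1:153587006-153587065 (hg19, minus strand), encodes an EF-hand calcium-binding protein of epithelia. Its signal was 64.6, 82.2 and 59.8 in T47D-VC1, 154.9, 108 and 113 in T47D-PA5, and 584, 904 and 899 in T47D-PA6. The lines followed one another without overlap. The log2 fold change was 3.52 ± 0.22 (SE, n = 3, limma adjusted p = 0.00025) against T47D-VC1, and 2.66 ± 0.22 (limma adjusted p = 0.00094) when T47D-PA5 was the reference. Both calls held under all 22 alternatives run.

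ADAMTS4, a secreted protease that cleaves aggrecan, with its probe starting at 161159646, had the largest rise. Its signal was 111, 159 and 160 in T47D-VC1, 501, 739 and 713 in T47D-PA5, and 795, 2945 and 3076 in T47D-PA6. The log2 fold change of T47D-PA6 against T47D-VC1 was 3.77 ± 0.48 (SE, limma adjusted p = 0.003). All T47D-PA5 arrays also lay above all T47D-VC1 arrays, but the difference of 2.18 did not pass (limma adjusted p = 0.067), nor did that between T47D-PA6 and T47D-PA5. Replicate 1 of T47D-PA6 lay far below the other 2 arrays of its line.

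Dimmer genes also rose in T47D-PA6. KIRREL, a cell adhesion molecule of the nephrin family now named KIRREL1, gave 30.6, 51.1 and 40.7 in T47D-PA6 and was well above background on 0 of 3 arrays in the vector line, a rise of at least 3.21-fold. Where a gene was not well above background in a line, its fold is given as a bound against the lowest signal so detected on each array, and a p is that of the fitted values. KIRREL, and NMNAT2, RGL1, XLOC_l2_001331 and TCHH below, reached 3 of 3 arrays in 1 line only and were members through that line, so they had to differ and their values are a description with no p. PEAR1, FMN2, DENND1B, C4BPB and IL20 below did not reach 3 of 3 arrays in T47D-PA6. They were members through lines where they were higher, so their p-values and calls are a description and not independent support. FCRLB, an Fc receptor-like protein of B cells, rose from 30.0, 24.6 and 19.7 in T47D-VC1 to 92.6, 112 and 103 in T47D-PA6, with 58.1, 35.4 and 40.3 in T47D-PA5. Its log2 fold change against T47D-VC1 was 2.06 ± 0.21 (limma adjusted p = 0.0012), and the arrays of the 3 lines did not overlap. LYPD8, a secreted mucosal protein in the last bin, rose 2.25-fold (limma adjusted p = 0.011), from 65.5, 93.4 and 88.0 to 210, 172 and 170.

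PEAR1, a receptor of platelets and endothelium, with its probe starting at 156885677, had the steadiest fall in T47D-PA6. Its signal was 21.1, 28.5 and 32.3 in T47D-VC1 and 27.2, 31.5 and 27.8 in T47D-PA5, and 0 of 3 T47D-PA6 arrays were well above background. The fall was at least 2.32-fold against T47D-VC1 (limma adjusted p = 8.78e-05) and at least 2.48-fold against T47D-PA5 (limma adjusted p = 8.35e-05). T47D-VC1 and T47D-PA5 overlapped for this gene. The call of PEAR1 held under every alternative in which it was tested. PEAR1 was a member only through lines where it was higher, so these p-values are a description.

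FMN2, an actin-nucleating formin, gave 18.96, 27.9 and 17.4 in T47D-VC1 and 32.3, 37.9 and 36.4 in T47D-PA5. It was not well above background in T47D-PA6 and was lower there by at least 1.81-fold when set against T47D-VC1 (limma adjusted p = 0.030) and by at least 3.06-fold when set against T47D-PA5 (limma adjusted p = 0.0095). The first call ended without any 1 of 7 arrays. The second was lost under 2 of 21 alternatives, the mean of the gene's probes (adjusted p = 0.056) among them. Another FMN2 probe of similar signal gave -1.35 against T47D-VC1 and -2.14 against T47D-PA5 and passed in neither comparison. DENND1B, an exchange factor for the trafficking GTPase Rab35, gave 82.6, 91.4 and 113 in T47D-VC1, 207, 210 and 223 in T47D-PA5, and 57.1, 15.1 and 12.2 in T47D-PA6, where 2 of 3 arrays were well above background. Its log2 fold change was -3.28 ± 0.49 (limma adjusted p = 0.0069) between T47D-PA6 and T47D-PA5, and the 3 probes of the gene gave -2.34, -3.28 and -3.42. C4BPB, the beta chain of the complement C4b-binding protein, was not well above background in T47D-PA6 and fell there by at least 3.92-fold from the vector line (limma adjusted p = 0.018). Replicate 1 lay below the other 2 arrays for C4BPB in T47D-VC1 and in T47D-PA5, and the call ended without any 1 of 4 arrays: replicate 2 or 3 of T47D-VC1 or T47D-PA6.

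Among noncoding or unnamed transcripts, 3 near the nuclear receptor gene NR5A2 fell in T47D-PA6. The probes of lnc-NR5A2-1 and THC2713234 lie side by side between 200384539 and 200384663, and that of ENST00000427825 starts at 200447336. Their log2 fold changes against T47D-VC1 were -2.15, -2.25 and -2.98 (limma adjusted p = 0.047, 0.045 and 0.036). For lnc-NR5A2-1, replicate 1 gave 147 in T47D-VC1 and 132 in T47D-PA6, while replicates 2 and 3 gave 351 and 337 against 33.6 and 45.05. All 3 calls were lost with the replicate block, at adjusted p of 0.073, 0.073 and 0.061, and without any 1 of replicates 2 and 3 of the 3 lines. NR5A2 itself had a log2 fold change of 0.02.

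Signalling genes were among those that stood out in T47D-PA5. NMNAT2, which makes NAD+ in neurons and protects axons, is read by a probe starting at 183217781 and gave 75.5, 50.1 and 43.2 in T47D-PA5 and was well above background on 0 arrays of the other 2 lines. The rise over T47D-VC1 was at least 4.12-fold. CHRM3, the M3 muscarinic acetylcholine receptor, gave 33.9, 43.0 and 51.8 in T47D-VC1, 99.1, 131 and 143 in T47D-PA5, and 56.6, 64.7 and 55.0 in T47D-PA6. Its log2 fold change was 1.54 ± 0.19 (limma adjusted p = 0.0075), with T47D-PA5 above all other arrays. RGS2, a brake on Gq-coupled receptor signalling, rose by 1.25 ± 0.15 (limma adjusted p = 0.0056), from 22.5, 18.8 and 18.9 to 40.4, 47.7 and 55.8, while T47D-PA6 gave 24.9, 21.2 and 25.2.

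ATP2B4, a calcium pump of the plasma membrane, gave 317, 327 and 293 in T47D-VC1, 638, 781 and 790 in T47D-PA5, and 526, 496 and 562 in T47D-PA6. The log2 fold changes were 1.23 ± 0.11 in T47D-PA5 and 0.76 ± 0.11 in T47D-PA6 (limma adjusted p = 0.0025 and 0.0065). Its probes disagreed: a dimmer one gave 0.37 and -0.48, and with the mean of both probes the T47D-PA6 call was lost (adjusted p = 0.51). RGL1, an effector of Ras-family GTPases, was at least 2.51-fold higher in T47D-PA5 than in T47D-VC1. The 1 member called lower in T47D-PA5, XLOC_l2_001331, was not well above background there and at least 1.41-fold lower. The count of 1 was 0 without any 1 of the T47D-VC1 arrays, without T47D-PA5 replicate 3 or without T47D-PA6 replicate 2.

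**Figure D5:**
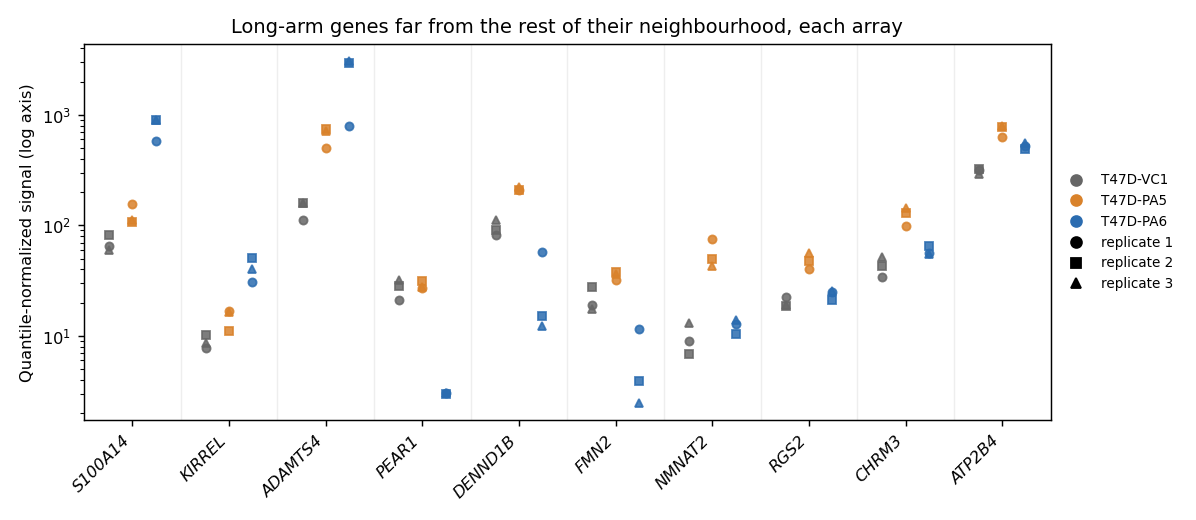
Quantile-normalized signal (y axis, log scale) on each of the 9 arrays for 10 long-arm genes (x axis), coloured by line with symbols for the replicate. S100A14 and ADAMTS4 are highest in T47D-PA6, PEAR1, DENND1B and FMN2 are lowest there, and NMNAT2, RGS2 and CHRM3 are highest in T47D-PA5.

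Set against T47D-PA5, T47D-PA6 differed in further genes. CA14, a membrane carbonic anhydrase, gave 95.2, 174 and 191 in T47D-PA5 against 339, 327 and 306 in T47D-VC1 and 339, 311 and 302 in T47D-PA6. T47D-PA6 exceeded T47D-PA5 by a log2 fold change of 1.11 ± 0.23 (limma adjusted p = 0.023), a call that ended without T47D-PA6 replicate 2 or 3. Its fall in T47D-PA5 against T47D-VC1 missed the threshold (limma adjusted p = 0.054). IPO9, an importin that carries histones and actin into the nucleus, gave 53.2, 37.1 and 42.2 in T47D-VC1, 105, 90.0 and 93.2 in T47D-PA5, and 26.5, 13 and 14.1 in T47D-PA6. It had a log2 fold change of -2.50 ± 0.26 (limma adjusted p = 0.0022) between T47D-PA6 and T47D-PA5, a call that held under every alternative.

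Functional lists, drawn up with earlier results known, are given by their counts and medians, with no test of a list. Of all 841 members, 46.4% were lower in T47D-PA6 than in T47D-PA5. Among the 583 protein-coding members 323 were lower, and among the 208 without a RefSeq match 56 were. The listed genes encode proteins, so the protein-coding share is the nearer background, and a list with a share of calls near it is not set apart from the arm. Of 15 cell division genes, 10 were lower in T47D-PA6 than in T47D-PA5 and 0 were higher. CENPF, a kinetochore protein, had -1.10, NUF2, a subunit of the Ndc80 complex, had -1.13, and ASPM, a spindle pole protein, had -0.91, a call lost under 10 of 22 alternatives. Against T47D-VC1 only CENPL, a centromere protein, and DTL, a substrate receptor of the CUL4 ubiquitin ligase, were lower in T47D-PA6, at -0.60 and -0.89, calls lost under 13 and 11 of 22 alternatives, and 0 of 15 passed in T47D-PA5. The list medians were 0.44 in T47D-PA5 and -0.39 in T47D-PA6 against T47D-VC1, and -0.84 between them. The protein-coding members had 0.35, -0.24 and -0.63, so much of each list median is that of the arm. All genes had -0.001 between T47D-PA6 and T47D-PA5.

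Of 17 chromatin regulators, 13 were lower in T47D-PA6 than in T47D-PA5, with a list median of -0.69. TAF5L, a subunit of the SAGA-type coactivator complexes, had -1.13, and SETDB1, a histone H3 lysine methyltransferase, had -0.63 by its brightest probe, while its other 2 probes gave -0.03 and -0.17 and did not pass. GATAD2B, a subunit of the NuRD complex, was the only one to pass in T47D-PA5 against T47D-VC1, at 0.83 (limma adjusted p = 0.031), a call lost under 10 of 22 alternatives, while all 17 had log2 fold changes above 0. CHD1L, a chromatin remodeller, and TAF5L were lower in T47D-PA6 against T47D-VC1, at -0.63 and -0.66, calls lost under 7 and 2 of 22 alternatives. The dimmer probes of both gave -0.32 and -0.42 and did not pass. Of 10 histone genes, HIST2H2BE was lower and HIST3H2BB higher in T47D-PA6 against T47D-VC1, and HIST3H2BB was the only one to pass in T47D-PA5 against T47D-VC1, where all 10 had values above 0 and the list median was 0.59. The HIST2H2BE call was lost under 10 of 22 alternatives, and its dimmer probe gave -0.20. The list median in T47D-PA6 against T47D-VC1 was 0.02. Histone genes are near-identical copies, so signal may be shared between them.

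Among genes of the mitochondrion and of translation, calls were again mostly lower in T47D-PA6 than in T47D-PA5. Of 11 genes of mitochondrial or cytosolic translation, 8 were lower in T47D-PA6 than in T47D-PA5 and 0 were higher. MRPL9 and MRPS21, proteins of the mitochondrial ribosome, were lower against T47D-VC1 too, at -0.78 and -0.49. A second, dimmer probe of MRPL9 gave -0.11 and did not pass, and the MRPS21 call was lost under 11 of 22 alternatives. Of 13 genes for mitochondrial enzymes, import or assembly, 8 were lower in T47D-PA6 than in T47D-PA5, among them SDHC of respiratory complex II at -0.51 and PPOX, an enzyme of haem synthesis, at -0.58. Against T47D-VC1, IBA57, an iron-sulphur assembly factor, was lower at -0.55 and the distal COX20 was higher. Neither list had a call in T47D-PA5 against T47D-VC1, where their medians were 0.28 and 0.33. Both proteasome subunits on the arm, PSMB4 and PSMD4, were lower in T47D-PA6 than in T47D-PA5, at -0.60 and -0.63.

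Of 12 S100 genes tested of 16, 6 were lower in T47D-PA6 than in T47D-PA5 and S100A14 alone was higher. The 6 were S100A1, S100A2, S100A10, S100A11, S100A13 and S100A16, with values between -1.27 and -0.61. S100A10, the partner of annexin A2, was also lower against T47D-VC1, at -0.58. S100A13 and S100A16 lie in the same cluster as S100A14 and were opposite to it in T47D-PA6 against T47D-PA5. Against T47D-VC1 they had 0.07 and -0.30 in T47D-PA6 and 0.79 and 0.31 in T47D-PA5, where S100A14 had 0.86, and none of these passed. None of the 12 passed in T47D-PA5 against T47D-VC1, where their log2 fold changes ran from 0.07 to 0.86.

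Of 19 luminal breast and cancer genes tested, 9 were lower in T47D-PA6 than in T47D-PA5, a share like that of all members and not above that of the protein-coding ones. EFNA3, an ephrin ligand, gave -1.06, ARNT, the dimerization partner of the dioxin receptor, -0.79, and MCL1, a survival factor of the BCL2 family, -0.63. EFNA3, ARNT and TPM3, a tropomyosin, were lower against T47D-VC1 as well, at -0.69, -0.53 and -0.40. BCL9, a coactivator of beta-catenin, was the only one to pass in T47D-PA5 against T47D-VC1, at 0.62 (limma adjusted p = 0.033), a call lost under 9 of 22 alternatives, while 1 of the 19 was under 0. MDM4, an inhibitor of p53, had 0.21 in T47D-PA5 and -0.20 in T47D-PA6 against T47D-VC1, and neither passed.

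Lists of tissue-restricted genes gave few values. Of 29 epidermal differentiation genes, 7 were tested, and TCHH, a hair follicle protein, and SPRR2F, a cornified envelope precursor, were lower in T47D-PA6 than in T47D-PA5, TCHH by at least 2.78-fold and SPRR2F at -0.62. None of the 4 PYHIN DNA sensors passed detection. Of 42 leukocyte genes 8 were tested, and FCRLB was higher and IL20, a cytokine not well above background in T47D-PA6, at least 1.70-fold lower there against T47D-VC1, a call lost under 13 of 21 alternatives. The leukocyte marker PTPRC, on the arm, had a log2 fold change of -0.17, and CD14 rose by 1.80 (limma adjusted p = 0.0082), and the part of these in the leukocyte genes was not tested. Of 5 complement genes tested, C4BPB and CD46, a membrane cofactor that protects cells from complement, fell in T47D-PA6 against T47D-VC1. Of 4 regulators of G-protein signalling, RGS2 alone passed, in T47D-PA5. The 3 gamma-secretase subunits had values from 0.50 to 0.68 in T47D-PA5, of which 0 passed, and NCSTN, the nicastrin subunit, was lower in T47D-PA6 than in T47D-PA5, at -1.03. The 2 nuclear receptors tested had 0 calls.

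At the proximal edge, the first members inside the arm as counted here, LOC101929787, SEC22B and NOTCH2NL, had log2 fold changes in T47D-PA5 against T47D-VC1 of 0.43, 0.06 and 0.64. The nearest genes outside it, PDE4DIP, LOC100996724 and A_33_P3374215, had 0.32, 0.54 and 0.50, so the start position is not an edge in the values. Several of these genes belong to duplicated families whose probes may not separate the copies.

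As to the samples, all 9 markers of luminal epithelium were well above background on all 9 arrays (signal 2363 to 301366), whereas 0 of 3 basal and 0 of 4 fibroblast markers were so on all arrays. Of 4 leukocyte markers, 3 were well above background on all arrays, as were 2 of 3 endothelial markers at most at 44.1. The progesterone receptor gene PGR was the 1 luminal marker called in T47D-PA6 against T47D-VC1, at -1.07. Between 44.0% and 48.0% of probes were well above background on each array, and 0 spots were saturated. The lowest signal well above background ran from 9.59 to 15.2, which bounds the dim genes named above.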

How the data were processed

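RNA of 9 samples, 3 each of T47D-VC1, T47D-PA5 and T47D-PA6, was hybridised to one-colour Agilent 60-mer arrays of 58201 non-control probes placed on hg19. Per the file headers, the deposited intensity values were extracted with Agilent Feature Extraction 10.7.1.1 (9.5.1.1 in the submitters' processing notes), which subtracted background and detrended each array. The authors also deposited quantile-normalized intensity values of the same arrays, used here as an alternative. Here log2 processed signals, without outlier-flagged spots and averaged per probe, were quantile-normalized. Probes well above background on 3 of 3 arrays of at least 1 line were tested (26172 probes, 20099 genes, each by its brightest probe) with limma 3.58.1 in R 4.3.3 over all 9 arrays, with Benjamini-Hochberg adjustment over all genes and a threshold of 0.05. The script was tested on simulated data. Figures were drawn with matplotlib 3.10.9.

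The number of arrays limits the precision, and depth does not apply to array signals. Arrays were grouped by their labels. Same-numbered arrays deviated together, with correlations of 0.34, 0.13 and 0.24 for T47D-PA6 with T47D-VC1, 0.27, 0.17 and 0.17 for T47D-PA6 with T47D-PA5, and 0.21, 0.099 and 0.12 for T47D-PA5 with T47D-VC1, the last not over 0.1 in every pair. The pairing comes from these correlations, since the titles number only replicates 2 and 3, and replicate 1 of each line shared slide 1. The members and gene lists were chosen with earlier results of these data known. Named genes are, per comparison, the 10 largest called rises and falls without overlap between arrays, list members that passed, and the genes furthest from their bin median. The motifs and the distal 5 Mb intervals were chosen after values were seen. Alternatives changed the normalization, background correction, detection filter, probe summary, blocks, samples or test. The authors' definition of change, a ratio above 2 or under 0.6, was counted beside the test. Some genes that met these rules are not reported here.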

Additional observations from a re-analysis of the deposited data

How the results depend on the processing

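No direction of an arm median or named gene reversed under the 22 alternatives. With normexp background correction the arm medians were -0.14 (T47D-PA6 against T47D-VC1), 0.25 (T47D-PA5 against T47D-VC1) and -0.42 (T47D-PA6 against T47D-PA5). The fold definition, in percent of the arm's genes, then gave 0.357 up and 2.14 down, 0.951 up and 0.119 down, and 0.357 up and 17.2 down in the same order, and 87 members were called higher in T47D-PA5. Of all genes, 1.66% were called higher in T47D-PA5 against T47D-VC1 with normexp. Without a filter on dim probes the medians were -0.037, 0.13 and -0.17. Calls were then 61 lower in T47D-PA6 and 30 higher and 0 lower in T47D-PA5 against T47D-VC1, and the fold definition gave 3.48% up in T47D-PA6 and 1.97% down in T47D-PA5 against T47D-VC1, and 2.3% up and 19.5% down in T47D-PA6 against T47D-PA5. Those counts are over a larger set of members. Among all 43270 genes of that setting, 1.51% were lower in T47D-PA6, and 0.361% were higher and 0.111% lower in T47D-PA5. With probes well above background on all 9 arrays, limma called 0 lower in T47D-PA5 against T47D-VC1 (before that filter, 9 of the 841 members were lower at an unadjusted p under 0.05). With that filter 0.252% of all genes were called lower. For T47D-PA5 against T47D-VC1, the 75th percentile shift called 2 lower, slide as a block 78 higher and 2 lower, and an intensity trend 92 higher. The shares of all genes were 0.353% lower, 2.29% higher and 0.721% lower, and 1.97% higher in the same order. With only the 2 lines compared, calls were 11 higher and 48 lower in T47D-PA6 against T47D-VC1 and 4 higher against T47D-PA5. Of all genes, 3.11%, 2.58% and 3.04% were called so. The methods' t-test after Benjamini-Hochberg adjustment called 5 higher and 15 lower, 7 higher and 0 lower, and 1 higher and 163 lower in the same order as the medians above. Of all genes it called 1.18% higher and 0.97% lower, 0.154% and 0.0398%, and 1.47% and 2.46%. With the replicate block, 36 were higher in T47D-PA6 against T47D-VC1 and 14 against T47D-PA5, and in T47D-PA5 against T47D-VC1, where the numbers share a slide but do not pair by their correlations, 60 were higher and 1 lower. Of all genes, 1.9% and 0.537% were so in that last comparison. With replicates 2 and 3 only, chosen after seeing the data, the medians were -0.25 and -0.63 for T47D-PA6, and calls were 83 higher and 386 lower, 376 higher and 13 lower, and 35 higher. Apart from the narrower or wider sets of genes and samples, the cause was not tested.

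Leaving out 1 array moved the medians between -0.25 and -0.18, 0.30 and 0.34, and -0.63 and -0.54. Calls ran from 7 to 31 higher and 22 to 198 lower, 6 to 114 higher and 0 to 2 lower, and 3 to 13 higher and 187 to 432 lower. The shares of all genes called ran from 1.97% to 6.33% and 1.46% to 7.41% in the first comparison. In the other 2 they ran from 0.373% to 2.37% and 0.0995% to 0.711%, and from 1.2% to 6.44% and 2.4% to 8.28%. No fold-definition percent moved by over 1.5 times when 1 array was left out. Over the named genes and alternatives, 2369 values kept their side of the threshold, 671 lost it and 33 gained it. Signals below about the detection limit of each array have only a bound.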
